A study of Mus musculus with 6 samples.

Results

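The genes described here encode 41 nucleolar factors that build ribosomes, from RNA polymerase I, which transcribes ribosomal RNA, to the proteins that modify, fold and package that RNA into the small and large ribosomal subunits. They were chosen by name for their function, with earlier results of these data known, and all 41 were found among the 47729 genes of the deposited tables. Messenger RNA was sequenced from activated CD8+ T cells of mouse spleen, with 3 libraries from vehicle-treated cells and 3 from cells treated with blebbistatin. Blebbistatin, which inhibits the ATPase of myosin II, was given at 2 µM for 24 h. The labels give no strain, genotype, age or activation protocol, nor what the vehicle was. Nor do they say whether replicates are separate animals or cultures, so p-values reflect the spread among these libraries alone, which can be technical.

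Ribosomes are assembled mainly in the nucleolus, around the genes for ribosomal RNA. RNA polymerase I makes a long precursor there. Small nucleolar RNAs, held in box C/D and box H/ACA particles, guide its methylation and pseudouridylation, and large assemblies of helicases, WD40-repeat proteins and scaffolds then cut and fold it into the 2 subunits. T cells enlarge their nucleoli and raise ribosome production when they are activated, and many of these genes are known targets of the transcription factor MYC.

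Most of the 41 genes were slightly lower with blebbistatin, and a single one passed the test. The log2 fold change was below 0 in 31 members and above 0 in 10, with a median of -0.11 (range -0.41 to 0.34), while 44.9% of all tested genes lay below 0 with a median of 0.03. Among the 5327 tested genes at least as abundant as the lowest member, 52.7% lay below 0, with a median of -0.01. In 20 members every blebbistatin library was below every vehicle library, against 13.0% of all tested genes and 19.8% of those at the members' level. In 2 members, Polr1e and Utp20, every blebbistatin library was above, against 18.0% of all tested genes and 16.1% of those at the members' level. Adjusted over all 13372 tested genes by limma with Benjamini-Hochberg, Mybbp1a fell and 0 members rose. Of all tested genes 1.82% passed, with 0.426% lower and 1.4% higher, and at the members' level 0.638% were lower and 1.33% higher. At an unadjusted p under 0.05, 18 members were lower and 1 was higher, against 9.99% and 12.9% of tested genes and 15.5% and 11.5% of those at the members' level. All 41 members were abundant enough to be tested, so none was left out by the minimum level of 1 TPM (a level corrected for transcript length and library size).

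**Figure D1:**
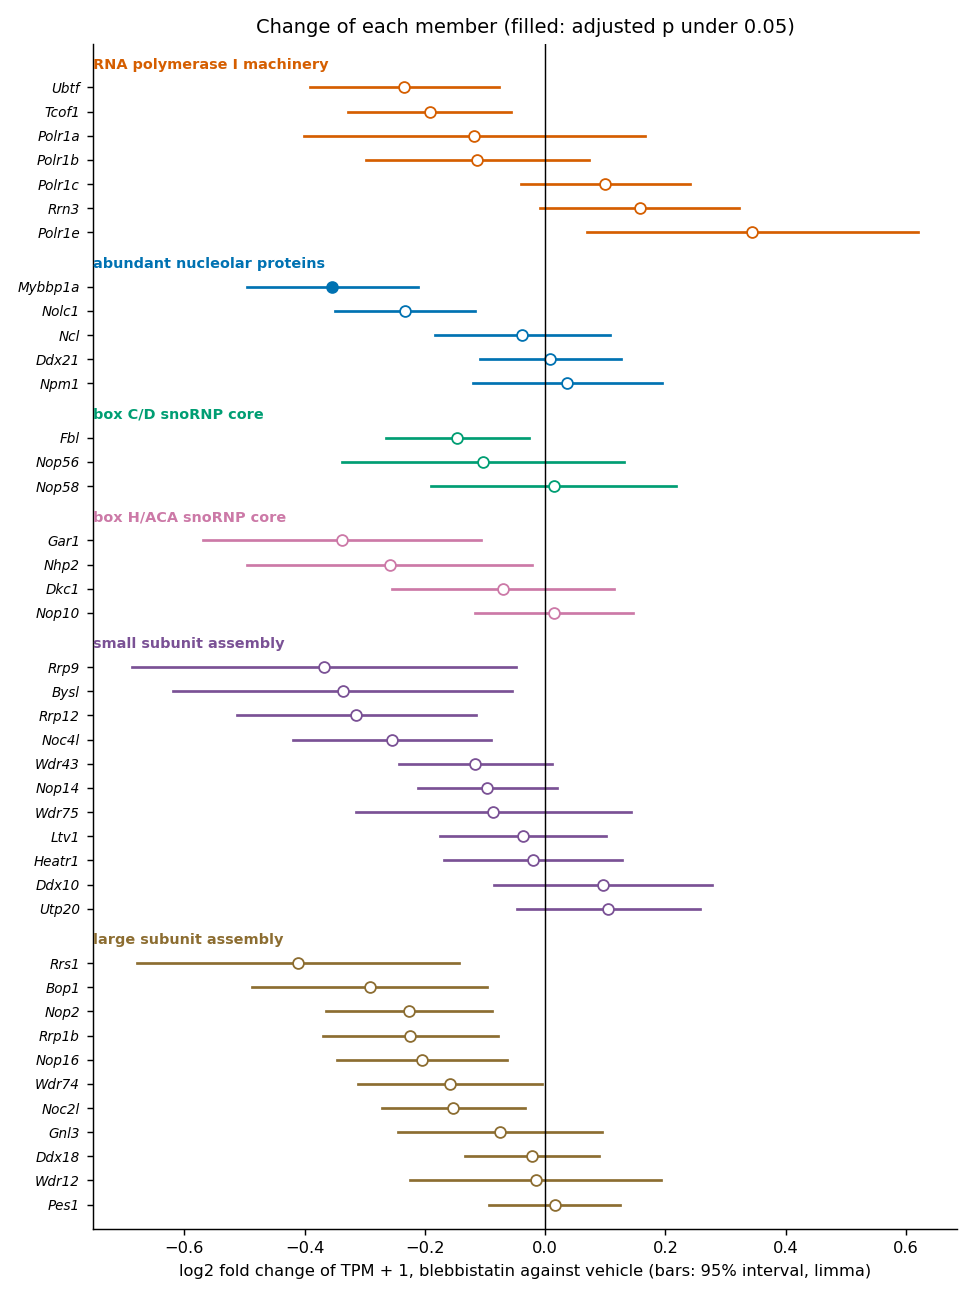
Log2 fold change of each of the 41 members, blebbistatin against vehicle, on the log2(TPM + 1) scale, grouped by role. Points are limma estimates from 3 libraries per group, bars are 95% intervals, and the filled point, Mybbp1a, is the member that passed.

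That call depended on which libraries were used. Mybbp1a no longer passed when any of vehicle 1, 2 or 3, blebbistatin 1 or blebbistatin 3 was left out, and 0 members were then called. The count over all tested genes moved as well. Over the 6 fits with 1 library left out, 3 to 1090 genes were called in all, and 0 to 594 were called lower. Without blebbistatin 2, 8 members were lower (Rrs1, Nolc1, Bop1, Bysl, Mybbp1a, Tcof1, Nop2 and Noc4l), where 4.44% of all tested genes were lower. In that fit 0 members were higher, where 3.71% of all tested genes were higher.

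The cells carried the markers of the labelled type. The summed level of 8 CD8 T cell markers, among them Cd8a, Cd8b1 and Cd3e, was 3409 to 3427 TPM with vehicle and 3415 to 3628 TPM with blebbistatin, and each marker was detected. The summed level of 8 platelet markers was 59.1 to 67.6 TPM with vehicle and 133 to 150 TPM with blebbistatin, with 5 of the 8 higher, and that of 8 B cell markers was 103 to 110 and 139 to 220 TPM, with 2 of the 8 higher. The summed levels of 6 myeloid markers were 6.82 to 9.79 and 11.2 to 12.8 TPM. The sums of CD4 T cell and erythroid markers overlapped between the groups, and those of NK cell markers were at most 2.71 TPM. Whether other cells had a part in the members' values was not tested. In bulk RNA, fewer cells of a type and less RNA per cell cannot be told apart. Aligned sequence was 5.54 to 5.98 gigabases per library, computed as coverage divided by FPKM, and the depths of the groups overlapped.

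The members are among the more abundant transcripts of these cells. Their mean level over the 6 libraries ran from 28.2 TPM for Wdr12 to 2831 TPM for Npm1, with a median of 104 TPM. Summed over the 41 genes, the level was 8775, 8971 and 8959 TPM in vehicle 1 to 3 and 8666, 8200 and 8503 TPM in blebbistatin 1 to 3. The sum was thus lower in each blebbistatin library, although Npm1, with the highest level, overlapped between the groups.

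**Figure D2:**
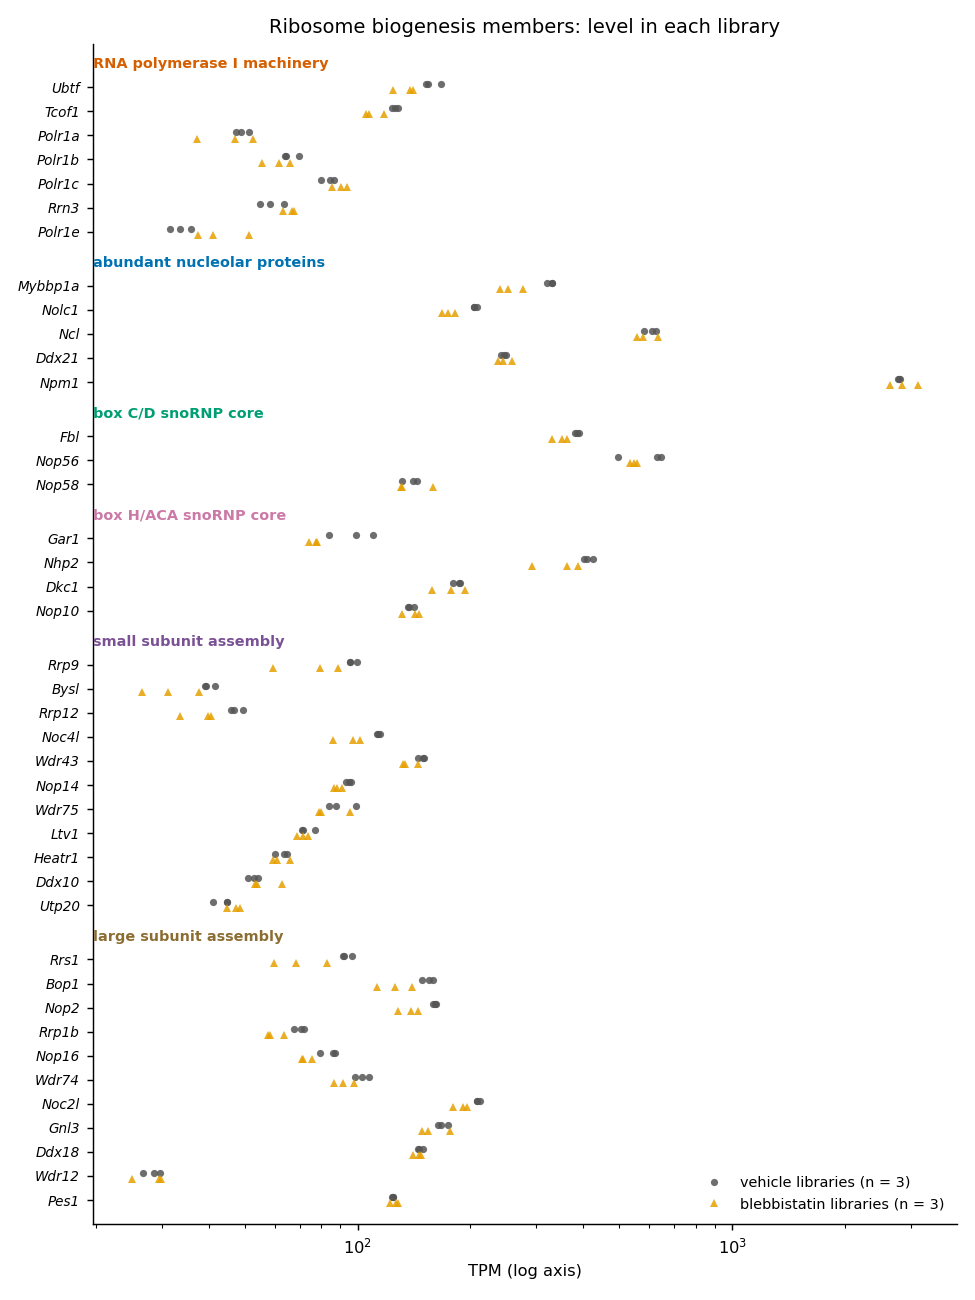
Level of each member in TPM on a log axis, in 3 vehicle libraries (circles) and 3 blebbistatin libraries (triangles), grouped by role and sorted within a role by log2 fold change. The groups stand apart in 20 members with blebbistatin lower and in Polr1e and Utp20 with blebbistatin higher.

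Abundant nucleolar proteins held the member that passed. Mybbp1a binds MYB and is a repressor of transcription that resides in the nucleolus. Its gene lies on chromosome 11 at 72441355 to 72451768 in GRCm38. It stood at 330.3, 331 and 321 TPM in vehicle 1 to 3 and at 241, 253 and 276 TPM in blebbistatin 1 to 3. The vehicle libraries were close to each other and every blebbistatin library was below them. The mean fell from 328 ± 5.56 to 257 ± 18.1 TPM (SD, n = 3 each; log2 fold change -0.35, SE 0.06, limma adjusted p = 0.0442). Nolc1, a phosphoprotein that chaperones small nucleolar particles, was also lower without overlap, at 204, 208 and 204 TPM against 168, 182 and 174 TPM. It did not pass (log2 fold change -0.23, limma adjusted p = 0.0688).

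The other 3 genes of that group, which encode the most abundant proteins of the nucleolus and an RNA helicase, overlapped between the groups. Npm1, nucleophosmin, a chaperone of histones and ribosomal proteins, had the highest level of all members. It stood at 2790, 2802 and 2780 TPM in the vehicle libraries and at 3138, 2638 and 2836 TPM in the blebbistatin libraries. The vehicle libraries were nearly equal, while blebbistatin 1 was above them and blebbistatin 2 below (log2 fold change 0.04, 95% interval -0.12 to 0.19). Ncl, nucleolin, which binds the ribosomal RNA precursor, was at 580.0, 613 and 626 TPM against 635, 559 and 579 TPM, again highest in blebbistatin 1 and lowest in blebbistatin 2. Ddx21, the helicase, had a log2 fold change of 0.01 (95% interval -0.11 to 0.13).

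RNA polymerase I genes did not move in 1 direction. Of 7, 4 were below 0 and 3 above, with 0 passing the test by limma, although 2 were lower and 1 higher at an unadjusted p under 0.05. Of tested genes at the members' level, 15.5% were lower and 11.5% higher at such a p. Ubtf, the factor that binds ribosomal RNA gene promoters and keeps them open, stood at 167, 154 and 153 TPM with vehicle and 124, 138 and 141 TPM with blebbistatin. It had no overlap between groups and did not pass (log2 fold change -0.23, SE 0.07, limma adjusted p = 0.119). Tcof1, treacle, a scaffold for Ubtf and the polymerase, was the other member lower without overlap, at 126 ± 2.28 against 110.0 ± 6.34 TPM.

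Polr1e, a subunit of the polymerase, had the highest log2 fold change of all members. Its levels were 33.6, 31.5 and 35.8 TPM with vehicle and 41.1, 37.5 and 51.2 TPM with blebbistatin. Every blebbistatin library was above every vehicle library, with blebbistatin 3 far above the other two, and the gene did not pass (log2 fold change 0.34, SE 0.12, limma adjusted p = 0.158). Without blebbistatin 3 its log2 fold change was 0.22. Rrn3, the factor that joins the polymerase to the promoter, was at 59.0 ± 4.41 against 65.9 ± 2.48 TPM and overlapped. The large catalytic subunits Polr1a and Polr1b had log2 fold changes of -0.12 and -0.11 and overlapped, and Polr1c, which polymerases I and III share, was at 0.10 and overlapped.

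The ratio of Polr1e to Polr1a was 0.709, 0.647 and 0.697 in the vehicle libraries and 0.875, 1.01 and 0.973 in the blebbistatin libraries. The 2 groups of ratios did not overlap. Of 9 such ratios within complexes or between partners, chosen after the values were seen, 2 did not overlap between the groups and 7 did. Among single tested genes at the members' level, 19.8% were lower and 16.1% higher without overlap. The share among ratios of other genes was not computed. A comparison of 3 libraries against 3 cannot give an exact two-sided permutation p under 0.1.

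Box C/D genes encode the core of the particles that methylate ribosomal RNA. Fbl, fibrillarin, the methyltransferase, stood at 391, 386 and 380 TPM against 331, 352 and 363 TPM. Each blebbistatin library was lower than each vehicle library, by little, and the gene did not pass (log2 fold change -0.15, SE 0.05, limma adjusted p = 0.161). Nop56, a scaffold of the particle, was at 496, 646 and 629 TPM against 557, 533 and 547 TPM. Vehicle 1 lay below all 3 blebbistatin libraries and the other vehicle libraries above them, so the groups overlapped. The log2 fold change was -0.10, and -0.22 without vehicle 1, -0.03 without vehicle 2 and -0.05 without vehicle 3. Nop58, its partner scaffold, was at 132, 144 and 140 TPM against 131, 131 and 159 TPM, with the highest value in blebbistatin 3 and no separation of the groups. At an unadjusted p under 0.05, 1 of the 3, Fbl, was lower, against 15.5% of tested genes at the members' level.

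Box H/ACA genes encode the particle that converts uridine to pseudouridine. Gar1, one of its core proteins (chromosome 3, 129824912 to 129831396), stood at 99.2, 83.7 and 110.0 TPM against 78.0, 77.7 and 74.2 TPM. All blebbistatin libraries were below the vehicle libraries, whose own spread was wide (log2 fold change -0.34, SE 0.10, limma adjusted p = 0.122). Nhp2, a core protein that binds the guide RNA, was at 425, 403 and 410.0 TPM against 292, 387 and 362 TPM. It too was lower without overlap, chiefly in blebbistatin 1 (log2 fold change -0.26, limma adjusted p = 0.190), and without blebbistatin 1 it was at -0.14. Both were lower at an unadjusted p under 0.05, as were 15.5% of tested genes at the members' level.

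Dyskerin, the pseudouridine synthase of that particle, is encoded by Dkc1, which overlapped between the groups at 184 ± 4.46 and 176 ± 18.1 TPM. Nop10, the smallest core protein, was at 137, 137 and 142 TPM against 143, 132 and 146 TPM (log2 fold change 0.02, 95% interval -0.12 to 0.15). Blebbistatin 2 was the lowest library and blebbistatin 3 the highest. The 4 genes of this complex ran from -0.34 to 0.02 on the log2 scale.

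Of 11 genes for assembly of the small subunit, 9 were below 0, with 6 lower and 1 higher without overlap. By limma 0 passed, and 4 were lower at an unadjusted p under 0.05. Of tested genes at the members' level, 19.8% were lower and 16.1% higher without overlap, and 15.5% were lower at such a p. The median of the 11 was -0.10. Rrp9, a protein of the U3 particle that starts processing of the precursor (chromosome 9, 106475963 to 106485424), had the lowest value. It stood at 99.8, 95.3 and 95.2 TPM against 59.4, 88.6 and 79.3 TPM. The vehicle libraries were close, while the blebbistatin libraries were spread out below them (log2 fold change -0.37, SE 0.14, limma adjusted p = 0.179). Leaving out blebbistatin 1 brought the log2 fold change to -0.20.

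Wdr43, a WD40-repeat protein of the early small subunit particle, had the highest level of the 11, at 145, 149 and 150 TPM against 145, 132 and 134 TPM. The groups were barely apart, since blebbistatin 1 was just below vehicle 1 (144.6 against 145.2 TPM). Its log2 fold change was -0.12 (limma adjusted p = 0.250). Utp20, a large scaffold, was at 40.99, 44.7 and 44.8 TPM against 48.4, 44.9 and 47.3 TPM. Blebbistatin was higher without overlap, with blebbistatin 2 just above vehicle 3 (log2 fold change 0.11, limma adjusted p = 0.360), and without vehicle 1 the log2 fold change was 0.06. Of the remaining members, Bysl (-0.34), Rrp12 (-0.31), which joins the particle for export, and Noc4l (-0.26) were lower without overlap, as was Nop14 (-0.10). Ltv1, Heatr1, Wdr75 and Ddx10 overlapped, with values from -0.09 to 0.10.

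Of 11 genes for assembly of the large subunit, 10 were below 0, 7 of them without overlap, and 7 had an unadjusted p under 0.05. Of tested genes at the members' level, 52.7% were below 0, 19.8% lower without overlap and 15.5% lower at such a p. The median of the 11, -0.16, was lower than that of the small subunit genes, and the difference between the 2 groups was not tested. By limma 0 passed. Rrs1, which brings ribosomal proteins and 5S RNA into the particle (chromosome 1, 9545408 to 9547455), had the lowest log2 fold change of all 41 members. Its levels were 91.9, 91.3 and 96.3 TPM against 59.6, 83.1 and 68.6 TPM. Every blebbistatin library was lower, and blebbistatin 1 and 3 were lower than blebbistatin 2 (log2 fold change -0.41, SE 0.11, limma adjusted p = 0.113). Without blebbistatin 2 it passed, at -0.54 (limma adjusted p = 0.0207).

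Noc2l had the highest level of this group, at 208, 212 and 209 TPM against 180, 191 and 196 TPM. Its groups did not overlap (log2 fold change -0.15, limma adjusted p = 0.152). Exons of Samd11, on the opposite strand, overlap 20.9% of its exon length. The library kit does not mark strand, so reads there can come from either gene. Ccnd3 overlaps 9.4% of the exon length of Bysl in the same way. How far these overlaps change the levels of Noc2l and Bysl was not tested. Nop56 shares 8.1% of its exon length with other genes, Nop14 5.3% and Pes1 4.6%.

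Pes1, Bop1 and Wdr12 form 1 complex, PeBoW, which is needed to process the precursor of the large subunit RNA. Pes1 was at 124, 124 and 124 TPM against 122, 128 and 126 TPM, the narrowest spread of the 3, and did not separate the groups (log2 fold change 0.02, 95% interval -0.09 to 0.13). Bop1 was at 149, 159 and 155 TPM against 113, 140.1 and 126 TPM, and every blebbistatin library was lower (log2 fold change -0.29, limma adjusted p = 0.119). The ratio of Bop1 to Pes1, the other of the 2 that stood apart, was 1.20, 1.28 and 1.25 with vehicle and 0.920, 1.10 and 0.995 with blebbistatin, without overlap. The ratio of Wdr12 to Pes1 overlapped, at 0.216 to 0.239 and 0.195 to 0.244. The ratios of Gar1, Nhp2 and Nop10 to Dkc1, and of Nop56, Fbl and Rrp9 to Nop58, overlapped as well. All these are ratios of levels in TPM.

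The other large subunit members lower without overlap were Nop2 (-0.23), a methyltransferase, Rrp1b (-0.22), Nop16 (-0.21) and Wdr74 (-0.16). Gnl3, nucleostemin (-0.08), the helicase Ddx18 (-0.02) and Wdr12 (-0.02) overlapped. Near-identical copies in the genome were found for Ddx18, Fbl, Npm1, Pes1 and Wdr12. Levels were given for 1 copy of each, at most 0.464% of the level of the member it resembles. Further copies of Ddx18, Npm1, Pes1 and Wdr12 had no level.

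Differences from vehicle were more spread out in the blebbistatin libraries, among members and other genes alike. The difference of each member from its vehicle mean had a median of -0.06 in blebbistatin 1, -0.13 in blebbistatin 2 and -0.10 in blebbistatin 3, and 24, 35 and 30 of the 41 lay below 0. The SD of these differences over the 41 members was 0.25, 0.12 and 0.19 in blebbistatin 1 to 3 and 0.05 to 0.06 in the vehicle libraries, whose own values enter that mean. Over the 5320 tested genes at the members' level with a GC value it was 0.34, 0.19 and 0.26 against 0.10 to 0.11, so the spread was not particular to the members. Blebbistatin 1 held both the lowest single values (Rrp9, Rrs1, Bysl) and members above vehicle (Npm1, Ncl, Ddx10). The differences in blebbistatin 2 were more uniform, around the lowest of the blebbistatin medians.

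**Figure D3:**
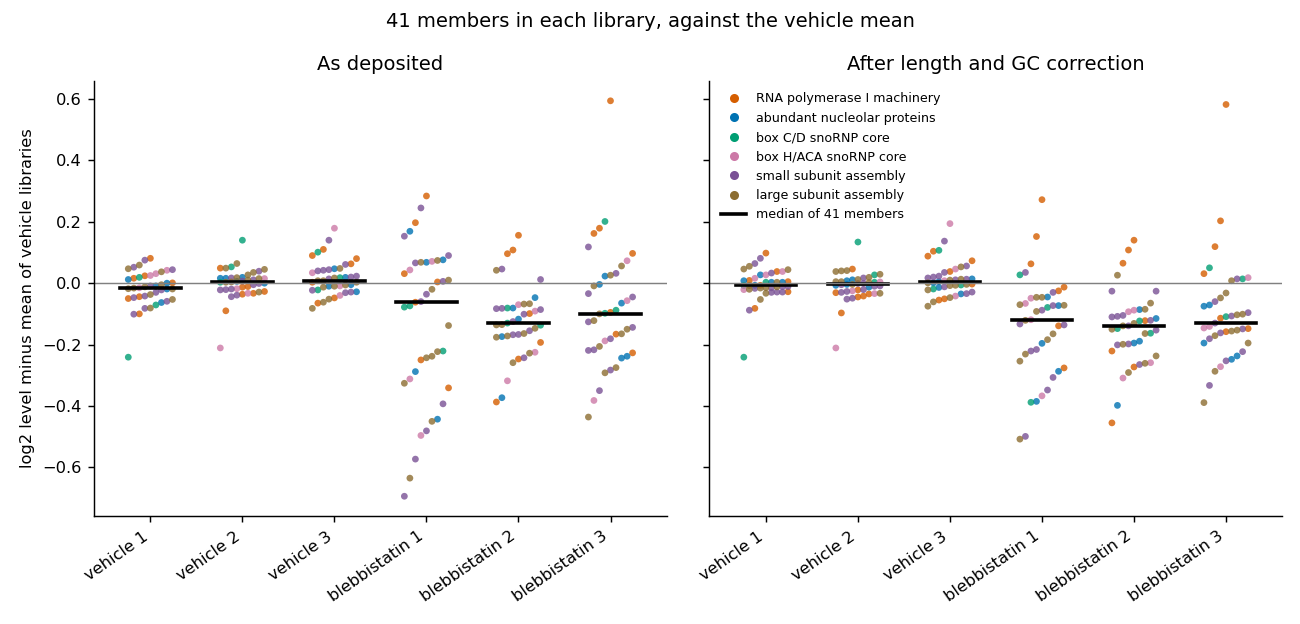
Difference of each of the 41 members from its own vehicle mean on the log2 scale, in each library, as deposited (left) and after length and GC content were corrected by loess (right); colours give roles and black lines the median of the 41. The blebbistatin medians are -0.06, -0.13 and -0.10 on the left and -0.12, -0.14 and -0.13 on the right.

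The size of the difference went with the base composition of the transcript. GC content of the longest protein-coding transcript ran from 40.4% in Wdr12 to 59.8% in Rrp9. Across the 41 members, the log2 fold change had a Pearson r of -0.64 and a Spearman rho of -0.73 with GC content. Over the 5320 tested genes at least as abundant as the lowest member these were -0.49 and -0.53, so the relation was not particular to the members. Genes here share the same 6 libraries and are not independent replicates. Within single libraries, the Pearson r over the members was -0.77, -0.21 and -0.51 in blebbistatin 1 to 3 and 0.39, -0.29 and -0.14 in vehicle 1 to 3.

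In the 13 members with at least 54% GC, among them Bop1, Fbl, Gar1, Nhp2, Rrp9, Rrs1 and Ubtf, all 13 were lower without overlap, with a median of -0.26. Of the 1483 tested genes of that GC content and at least the lowest member's level, 82.4% were below 0 and 39.1% lower without overlap, with a median of -0.15. In the 10 members under 46% GC, among them Ncl, Npm1, Nop58 and Wdr43, 7 were below 0 with a median of -0.04, where 25.1% of 1551 such genes were below 0 with a median of 0.09. Of the 11 members from 50% to under 54%, 8 were below 0 with a median of -0.12, where 59.5% of 1169 such genes were, with a median of -0.03. Of the 7 from 46% to under 50%, 3 were below 0 with a median of 0.01, close to the 44.3% and 0.02 of 1117 such genes.

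**Figure D4:**
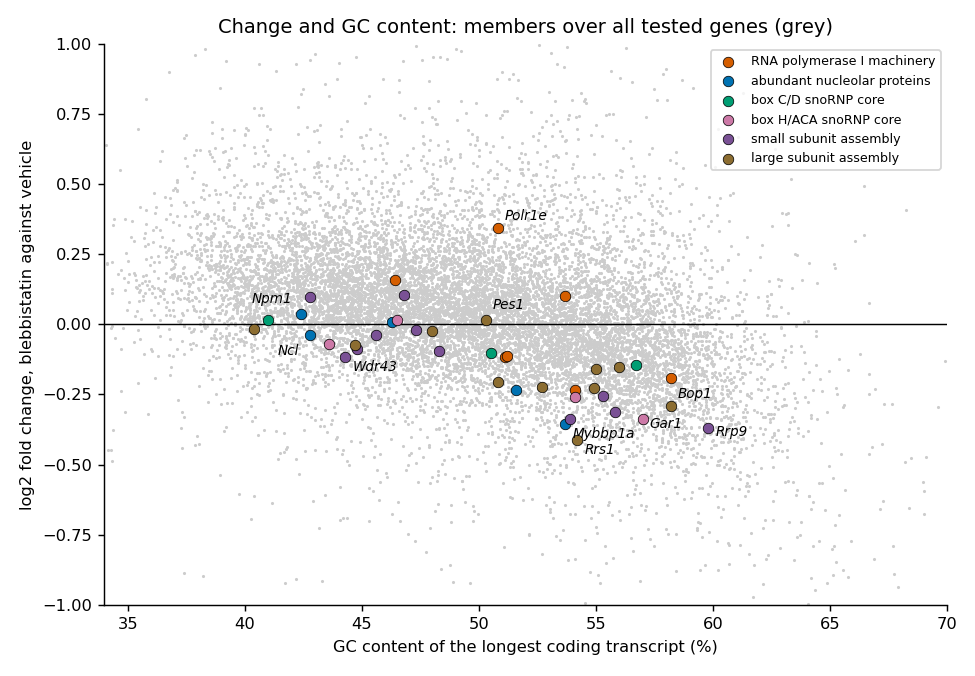
Log2 fold change, blebbistatin against vehicle, against GC content of the longest coding transcript (%), for the 41 members (coloured by role) over all tested genes (grey; 153 genes lie outside the axes). The cloud slopes down to the right, and the 13 members with at least 54% GC are all below 0.

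With length and GC content removed by a loess fit in each library, more members were below 0, and their SD was 0.16, 0.12 and 0.16 in blebbistatin 1 to 3. Of the 41, 38 were below 0 (51.0% of all tested genes and 61.4% of those at the members' level were), the exceptions being the polymerase I genes Polr1e (0.33), Polr1c (0.15) and Rrn3 (0.08). The median was -0.16, against 0.00 over all tested genes and -0.04 at the members' level. In 26 members blebbistatin was lower without overlap, against 16.1% of tested genes and 25.9% at the members' level. In 2 members, Polr1e and Polr1c, it was higher without overlap, against 1952 of 13317 tested genes. By limma on the corrected values 5 members passed, all lower, where 1.41% of tested genes fell and 2.4% rose, and 2.93% and 2.44% at the members' level. These were Mybbp1a (-0.34, adjusted p = 0.0208), Nolc1 (-0.24, adjusted p = 0.0215), Wdr43 (-0.21, adjusted p = 0.0208), Ncl (-0.19, adjusted p = 0.0184) and Nop2 (-0.16, adjusted p = 0.0473).

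Nucleolin shows how far the correction reached. Uncorrected, its log2 fold change was -0.04 and the groups overlapped. The transcript used for its length and GC content, the longest coding one, has 8202 bases. Corrected, its log2 fold change was -0.19, and -0.16 with coding length and coding GC content instead. Which transcript these cells express was not tested. Its corrected differences from the vehicle mean were -0.20, -0.19 and -0.20 in blebbistatin 1 to 3 and -0.01 to 0.01 in the vehicle libraries. Conversely, Fbl went from -0.15 to -0.03 and Rrp9 from -0.37 to -0.18, while Mybbp1a hardly moved. Fbl, Gar1 (-0.21), Tcof1 (-0.10) and Utp20 (-0.01) no longer separated the groups after the correction, although 26 members in all were then lower without overlap. After correction, the library medians over the 41 members were -0.12, -0.14 and -0.13 in blebbistatin 1 to 3, nearer to each other than before. The fit draws each library toward the mean of all libraries, so such closeness is partly built in. Over all tested genes these medians went from 0.05, 0.016 and 0.025 to 0.004, -0.009 and 0.002.

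Further ribosome biogenesis genes outside the 41 were chosen by function. Of 152 chosen, 150 were matched and all of these were tested. By limma 1 fell, Lyar, a nucleolar zinc finger protein, and 0 rose, where 0.426% and 1.4% of tested genes did. At an unadjusted p under 0.05, 37 were lower and 8 higher, against 9.99% and 12.9% of tested genes and 15.5% and 11.5% at the members' level. Lyar stood at 194, 192 and 199 TPM with vehicle and 148, 162 and 162 TPM with blebbistatin, lower in every blebbistatin library (log2 fold change -0.31, SE 0.06, limma adjusted p = 0.0459). The call was lost when any library other than blebbistatin 2 was left out. Without blebbistatin 2, 12 of the 150 were lower and 3 higher, against 4.44% and 3.71% of tested genes.

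Their log2 fold changes were below 0 in 100 of 150, against 44.9% of all tested genes and 52.7% at the members' level, with a median of -0.07. Across the 150, the log2 fold change had a Pearson r of -0.62 and a Spearman rho of -0.64 with GC content. Without overlap, 45 were lower and 10 higher, against 13.0% and 18.0% of all tested genes and 19.8% and 16.1% at the members' level. The 58 genes of large subunit assembly had a median of -0.05 and the 48 of small subunit assembly one of -0.10. The lowest value, chosen after it was seen, was that of Imp3, a U3 particle protein, at 129, 120 and 122 TPM against 42.5, 115 and 66.7 TPM. Blebbistatin 2 lay close to vehicle and blebbistatin 1 far below it (log2 fold change -0.83, limma adjusted p = 0.180). The highest was that of Krr1, at 19.4, 18.3 and 18.1 TPM against 46.4, 42.5 and 19.2 TPM, where blebbistatin 3 lay within the vehicle range (0.82, limma adjusted p = 0.174).

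Several members have small nucleolar RNA genes inside their own bounds, on the same strand. In mammals such genes usually sit in introns, and 10 of those found here also overlap an exon of some annotated transcript of the host. This held for 6 of the 41 (14.6%; Ncl, Nop56, Nop58, Dkc1, Wdr43 and Gnl3), with 19 such genes, and for 210 of 10951 tested protein-coding genes (1.92%). Of the 19, 12 reached 1 TPM and 0 passed by limma, with 3 at an unadjusted p under 0.05, where 22.9% of all tested genes had such a p in either direction. Library kits for messenger RNA recover such short RNAs poorly, so these levels are uncertain.

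Promoters of members were searched for the E-box CACGTG, the preferred site of MYC and MAX, because many of these genes are known MYC targets. The motif reads the same on both strands. RefSeq promoters on GRCm38.p6, from 250 bases before to 50 bases after the start, were found for 35 of the 41. Of these 7 (20.0%) held the motif, against 8.09% of 27025 genes with an entry and 12.2% of 8804 tested genes. The 8 matches are shown in lower case with the motif in capitals, 5′ to 3′ on the strand of the gene, so that their flanks can be compared.
Ltv1, chr10:13193092-13193121, minus strand: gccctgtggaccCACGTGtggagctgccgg
Mybbp1a, chr11:72441355-72441376, plus strand: gtcttctgagccCACGTGtttg
Nop2, chr6:125131811-125131840, plus strand: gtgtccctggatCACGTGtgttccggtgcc
Pes1, chr11:3963965-3963994, plus strand: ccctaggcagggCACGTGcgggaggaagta
Rrn3, chr16:13780472-13780501, plus strand: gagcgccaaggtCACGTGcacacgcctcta
Rrn3, chr16:13780639-13780668, plus strand: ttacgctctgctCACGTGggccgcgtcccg
Utp20, chr10:88826765-88826789, minus strand: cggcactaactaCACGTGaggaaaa
Wdr43, chr17:71616220-71616249, plus strand: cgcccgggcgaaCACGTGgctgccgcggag

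The motif begins 60 bases before the start of Nop2 and 215 and 48 bases before that of Rrn3, and after the start in the other 5 genes. The 7 members with the motif had a median log2 fold change of -0.04, with 4 below 0, and the 28 without it one of -0.10, with 22 below 0. Mybbp1a, which fell, and Utp20, Rrn3 and Pes1, which were above 0 and did not pass, all hold it. A match is a description of these letters and does not show that a factor binds there.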

How the data were processed

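RNA from 3 vehicle and 3 blebbistatin libraries was sequenced from TruSeq RNA v2 libraries, per the labels' protocols. HISAT2 2.1.0, StringTie 1.3.4 and DESeq2 1.22.2 with mm10 are named in the submitters' processing notes, with no role given. The authors deposited TPM, FPKM and coverage per gene. The deposited coverage served only for depth, and the deposited FPKM values only as an alternative. The 13372 genes whose level averaged 1 TPM or more were compared with limma 3.58.1 (R 4.3.3) on log2(TPM + 1), using its trend option, and p-values were adjusted over all of them by Benjamini-Hochberg at 0.05. Fold changes on this scale understate low genes. The test was first run on simulated data.

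Members and lists were chosen with earlier results of these data known. Named in full were members that passed and, per role, those with the highest level, largest fall and largest rise. Other genes were named after their values were seen. Length, GC content and overlaps came from GENCODE M21 (99.1% of identifiers matched). The GC correction is a loess fit with span 0.5, and copies were searched with blastn 2.17.0 at 95% identity over at least 50% of the coding length. Riok2, Exosc6 and protein sequences were not analysed here. Figures used matplotlib 3.10.9.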

Additional observations from a re-analysis of the deposited data

How the results depend on the processing

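Over all genes 244 passed, 1 of them a member, lower, and 1 a further ribosome biogenesis gene. With no minimum level the counts were 49 in all, 0 members lower and 0 further genes. Without the mean-variance trend they were 160, 0 and 0, and with quantile scaling 178, 0 and 0. A replicate block gave 0, 0 and 0, also with the length and GC correction, which alone gave 507, 5 and 4 and a members' median of -0.162 with or without the block. A correction by coding length and GC, added after the data were seen, gave 800, 12 and 8 and a median of -0.171; the 5 members were among the 12. Leaving out 1 library at a time gave 3 to 1090 genes in all, 0 to 8 members lower and 0 to 15 further genes. To look for pairing, the group mean of each gene was subtracted from its log2 values. The remaining deviations of same-numbered vehicle and blebbistatin libraries had a Pearson r of 0.011, -0.037 and -0.034. Members called higher numbered 0 in every alternative run.

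For Mybbp1a the log2 fold change ran from -0.41 to -0.30, with adjusted p from 0.0153 to 0.170. Members near 0 changed sign. Median-ratio scaling put Nop10 at -0.013, Nop58 at -0.014 and Pes1 at -0.012. The length and GC correction, with or without the replicate block, put them at -0.045, -0.167 and -0.004, Npm1 at -0.077 and Utp20 at -0.014. The coding correction gave Nop10 -0.015, Nop58 -0.147, Pes1 -0.003, Npm1 -0.102 and Utp20 -0.042. With 1 library left out Nop10 ran from -0.014 to 0.058, Nop58 from -0.08 to 0.062 and Npm1 from -0.029 to 0.096. The cause was not tested. The precision rests on 3 libraries a group at 5.54 to 5.98 gigabases each.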
